A study of Sus scrofa with 15 samples.

Results

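HSPA5 encodes BiP (also called GRP78), the HSP70 chaperone of the endoplasmic reticulum (ER). Its level was examined in LLC-PK1 cells, which derive from the proximal tubule epithelium of pig kidney, after overexpression of human PKD2. It is 1 gene (ENSSSCG00000005601) of the 16660 in the count table, and it was among the 11553 genes tested. The cells were transfected with 3 µg of 1 of 5 plasmids, and after 48 h the RNA of 3 wells was sequenced for each plasmid, giving 15 libraries. The empty plasmid (NC) carried no PKD2, whereas the others carried wild-type human PKD2 (WT) or the mutants Tg1 (D511V, A1532T in the coding sequence), Tg2 (L656W, T1967G) and Tg3 (R742X, C2224T). All plasmids shared the same backbone and the CAG promoter. The model is therefore a transient overexpression on top of the PKD2 of the pig cells. By the study's qRT-PCR, human PKD2 mRNA was far above NC, and its Western blot detected the protein of WT, Tg1 and Tg2. Tg3 encodes a truncated protein without the C-terminal tail and the FLAG tag used for that blot, so Tg3 protein was not shown. HSPA5 was chosen with earlier results of these libraries known, and its symbol came from the list of genes that the study had found to differ between Tg1 and NC in the same libraries. The Tg1 comparison with NC below is therefore not independent of how the gene came to be examined. Nor is any other test that includes the Tg1 or NC libraries.

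BiP binds unfolded proteins as they enter the ER and releases them in cycles of ATP hydrolysis that are set by J-domain co-chaperones and nucleotide exchange factors. It also binds the luminal sides of the stress sensors PERK (EIF2AK3), IRE1 (ERN1) and ATF6. When unfolded proteins accumulate, the unfolded protein response (UPR) is started through these sensors, and HSPA5 is itself one of its best known target genes, together with HSP90B1, PDIA4, HYOU1, DNAJB9, HERPUD1 and other genes of ER folding. Polycystin-2, the product of PKD2, is a cation channel that resides largely in the ER membrane and in primary cilia.

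The libraries held from 20216200 to 26132196 counts, and counting noise alone was exceeded between the replicates of every plasmid. WT replicate 2 stood furthest apart. Its chi-square over degrees of freedom was 23.5 against WT replicate 1 and 42.1 against WT replicate 3, while those 2 gave 5.38. Replicate 2 also stood apart in NC (8.18 and 14.9, against 3.66 between the others) and in Tg3 (5.73 and 9.56, against 2.78). In Tg1 it was replicate 1, and in Tg2 replicate 3, that differed most from the others. Of 19 renal epithelial markers, 17 were in the table and all 17 were detected, with KRT8 at 2195 to 2463 CPM (counts scaled to library size, here without TMM normalization). The summed level of the 17 markers ranged from 5653 to 5818 CPM in NC, 5665 to 6036 CPM in WT, 5778 to 5998 CPM in Tg1, 5458 to 5850 CPM in Tg2 and 5570 to 5718 CPM in Tg3. Of the markers of other cell types, CDH5, PTPRC, PDGFRA, PDGFRB, NPHS1 and UMOD did not exceed 0.311 CPM in any library. PECAM1 did not exceed 1.85 CPM and COL1A1 did not exceed 1.05 CPM, whereas the collagen gene COL1A2 was at 807 to 1067 CPM. The summed level of these other markers was 933 to 994 CPM in NC, 917 to 1069 CPM in WT, 868 to 1012 CPM in Tg1, 809 to 874 CPM in Tg2 and 855 to 907 CPM in Tg3. Tg2 and Tg3 thus lay below NC without overlap, but nearly all of this sum is COL1A2, a single gene. How many of all genes had this pattern was not counted. After TMM normalization, the difference of COL1A2 from NC did not pass the test used below in Tg2 or Tg3. The study describes replicate wells transfected in multi-well plates and does not mention separate cultures or days. The wells are taken as separate replicates here, so p-values measure only the spread between these libraries. In bulk RNA, fewer cells with a transcript and less of it per cell cannot be told apart.

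HSPA5 was well counted in every library. Its counts ranged from 21848 to 32123 per library, and counting error alone gave a coefficient of variation of 0.558% to 0.677%. In CPM after TMM normalization, which scales libraries so that most genes do not differ, HSPA5 was at 1008, 1089.9 and 1022 CPM in NC replicates 1, 2 and 3. It was at 1137, 1131 and 1186 CPM in WT and at 1189, 1266 and 1268 CPM in Tg1. It was at 1193, 1228 and 1098 CPM in Tg2 and at 1101, 1104 and 1077 CPM in Tg3. All 9 libraries of WT, Tg1 and Tg2 thus lay above all 3 NC libraries, and of Tg3 only replicate 3 lay within the NC range. The 3 Tg1 libraries were the highest as a group, and Tg2 was the least uniform, with replicate 3 only slightly above the highest NC library.

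**Figure D1:**
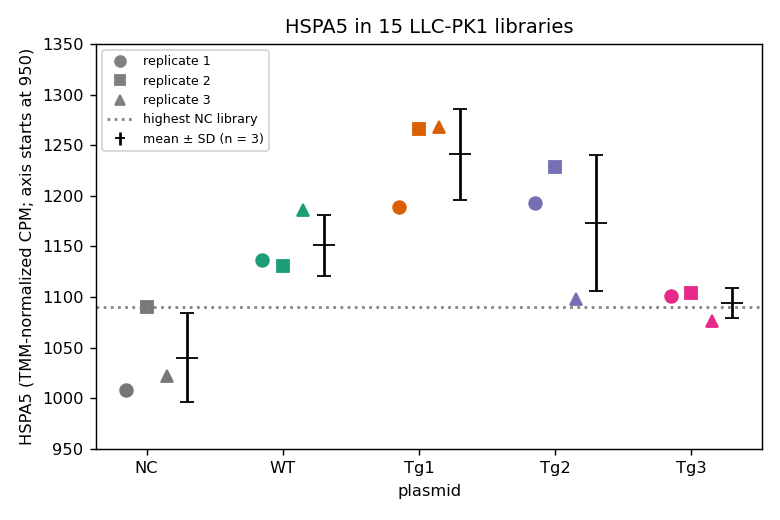
TMM-normalized CPM of HSPA5 (vertical axis, not starting at 0) in the 15 libraries, by plasmid; symbols mark the replicate number, the dotted line marks the highest NC library, and bars give the mean ± SD (n = 3). The Tg1 libraries sit between 1189 and 1268 CPM, and 11 of the 12 PKD2 libraries lie above the NC maximum of 1089.9 CPM.

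The mean level was 1241 ± 45.2 CPM (SD, n = 3) in Tg1, 1173 ± 67.4 CPM in Tg2, 1151 ± 30.1 CPM in WT, 1094 ± 14.9 CPM in Tg3 and 1039.9 ± 43.9 CPM in NC. The coefficient of variation between replicates was 3.65% in Tg1, 5.74% in Tg2, 2.61% in WT, 1.36% in Tg3 and 4.22% in NC, above the counting error in each. In this order no plasmid passed edgeR's test against the next one. The libraries of Tg1 and Tg2, of Tg2 and WT, and of Tg3 and NC overlapped. The WT libraries all lay above the Tg3 libraries, which at 3 against 3 gives the smallest p that an exact two-sided permutation test allows (p = 0.1).

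The comparisons with NC address whether overexpression of each PKD2 genotype moved HSPA5. They share the 3 NC libraries and are not independent of each other. A gene counted as a differentially expressed gene (DEG) when its adjusted p did not exceed 0.05 and its log2 fold change was at least 0.26 in either direction, a change of 1.2-fold, and p-values are from edgeR's quasi-likelihood test with Benjamini-Hochberg adjustment over all 11553 genes. By these thresholds HSPA5 was not a DEG in any genotype, although it passed the adjusted p-value in Tg1 and Tg2. The study set the same limits with DESeq2 and did list HSPA5 for Tg1. With DESeq2 here, HSPA5 passed the adjusted p in Tg1 but not the fold threshold. The source of this difference from the study was not tested.

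In Tg1, HSPA5 was 19.3% above NC (log2 fold change 0.25, standard error 0.05, 95% interval 0.16 to 0.35), with an adjusted p of 0.0188 by edgeR. This change is just under the fold threshold. HSPA5 ranked 43 of 11553 genes by p-value there, and its log2 fold change was above that of 95.3% of genes. Of all genes tested, 1.19% were DEGs in Tg1 and 2.29% passed the adjusted p alone, while 0.182% and 0.476% did so in the upward direction. The 126 genes that passed the adjusted p under the fold threshold included HSPA5. The call moved with single libraries, since HSPA5 became a DEG without NC replicate 2 (log2 fold change 0.29) or without Tg1 replicate 1, and its adjusted p passed in those 2 of the 6 fits lacking 1 library. The highest adjusted p by edgeR among the 6 was 0.105, without NC replicate 1.

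In Tg2, HSPA5 was 12.8% above NC (log2 fold change 0.17, standard error 0.05, 95% interval 0.08 to 0.27, adjusted p = 0.0297 by edgeR). More genes passed the test in Tg2 than in Tg1, and HSPA5 ranked 770 by p-value. Of all genes, 8.43% were DEGs and 14.2% passed the adjusted p alone. In the upward direction these shares were 4.73% and 7.82%. The adjusted p by edgeR ranged from 0.0106 to 0.12 over the fits lacking 1 library of Tg2 or NC and passed in 2 of the 6 fits.

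In WT, HSPA5 was 10.7% above NC (log2 fold change 0.15, 95% interval 0.05 to 0.25, adjusted p = 0.79 by edgeR). Its rank by p-value was 95 of 11553, in a comparison in which 0 genes, 0% of those tested, passed either rule. There, 524 genes had an unadjusted p under 0.05 by edgeR, and DESeq2 called 11 DEGs. Without WT replicate 2, edgeR called 25 DEGs, and the adjusted p of HSPA5 was 0.467. In Tg3, the difference of HSPA5 from NC was 5.18%, a log2 fold change of 0.07 (95% interval -0.03 to 0.17, adjusted p = 0.398 by edgeR). In that comparison 0% of genes passed either rule by edgeR, with 2089 genes at an unadjusted p under 0.05 and 45 DEGs by DESeq2.

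Libraries that did not overlap with NC were common among all genes. All 3 libraries lay above all 3 NC libraries, as for HSPA5, in 3.73% of genes in WT, 11.9% in Tg1 and 17.5% in Tg2, and in 13.4% of genes in Tg3, where HSPA5 did not have this pattern. The exact two-sided permutation test gave p = 0.1 in WT, Tg1 and Tg2, the smallest value for 3 against 3, and p = 0.2 in Tg3. The mean of the 4 genotypes was 11.9% above NC (log2 fold change 0.16, standard error 0.04, 95% interval 0.08 to 0.24). The adjusted p of this contrast was 0.0819 by edgeR, a contrast in which 0.0606% of genes were DEGs and 0.0779% passed the adjusted p alone. It was 0.00983 with DESeq2 in place of edgeR and 0.0324 by edgeR with the replicate number as a block. The single-gene exact permutation test of the 12 PKD2 libraries against the 3 NC libraries gave a two-sided p of 0.00659, and without NC replicate 1 it gave p = 0.0549. A test for any difference among the 5 plasmids gave F = 8.98 and an adjusted p of 0.036 by edgeR, a test passed by 5.36% of genes. That adjusted p ranged up to 0.095 over the fits lacking 1 library and passed in 4 of these 15. The contrast of the mean, the permutation test of the 12 libraries and the test for any difference all reuse the Tg1 and NC libraries. Their p-values are thus not independent of the way HSPA5 was chosen.

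**Figure D2:**
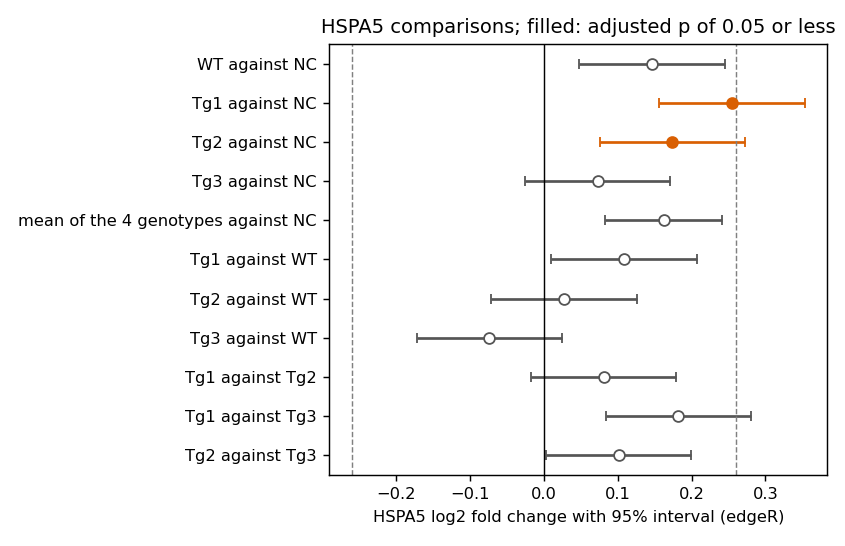
HSPA5 log2 fold change (horizontal axis, edgeR) with its 95% interval in 11 comparisons; filled points have an adjusted p of 0.05 or less, and dashed lines mark the fold threshold of 0.26 in both directions. Only Tg1 and Tg2 against NC are filled, and both points lie inside the dashed lines.

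The comparisons of each mutant with WT set a mutation beside overexpression of the wild-type gene. A mutation cannot be told apart there from a different level of the transgene, since the PKD2 transcripts were not analysed here. Tg1 was 7.8% above WT (log2 fold change 0.11, 95% interval 0.01 to 0.21, adjusted p = 0.281 by edgeR). All Tg1 libraries lay above all WT libraries, as in 8.45% of genes, while 0.0692% of genes were DEGs in that comparison and 0.104% passed the adjusted p alone. Tg2 and WT overlapped, with a log2 fold change of 0.03 (95% interval -0.07 to 0.13, adjusted p = 0.704 by edgeR), although 5.92% of all genes were DEGs between them and 9.51% passed the adjusted p alone. Without Tg2 replicate 2 this difference was -0.01. Tg3 was below WT in every library, as in 10.3% of genes, with a log2 fold change of -0.07 (95% interval -0.17 to 0.02, adjusted p = 0.366 by edgeR). Between Tg3 and WT, 0% of genes passed either rule by edgeR, 2215 had an unadjusted p under 0.05, and DESeq2 called 108 DEGs. Without WT replicate 2, the number of DEGs against WT was 855 in Tg1, 2421 in Tg2 and 1321 in Tg3, and the log2 fold changes of HSPA5 were 0.10, 0.01 and -0.09, with adjusted p-values of 0.228, 0.853 and 0.255 by edgeR.

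The mutants were compared with each other after their levels had been seen, and HSPA5 had been chosen through its Tg1 values. The largest of these differences was between Tg1 and Tg3, where HSPA5 was 13.5% higher in Tg1 (log2 fold change 0.18, 95% interval 0.08 to 0.28, adjusted p = 0.0762 by edgeR). The libraries did not overlap, as in 11.8% of genes, and 0.615% of genes were DEGs and 1.02% passed the adjusted p alone. With DESeq2 in place of edgeR the adjusted p was 0.0216. The difference of Tg1 from Tg2 was 0.08 (95% interval -0.02 to 0.18, adjusted p = 0.335 by edgeR), in a comparison with 0.138% DEGs and 0.19% past the adjusted p alone. The difference of Tg2 from Tg3 was 0.10 (95% interval 0.00256 to 0.20, adjusted p = 0.822 by edgeR), and 0% of genes passed either rule there, with 673 genes at an unadjusted p under 0.05 and 0 DEGs by DESeq2.

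The differences in HSPA5 are small, so the scaling of the libraries bears on them. As a share of all counts, HSPA5 made up 0.103%, 0.109% and 0.106% in NC replicates 1 to 3. The shares were 0.116%, 0.111% and 0.124% in WT, and 0.12%, 0.125% and 0.125% in Tg1. They were 0.113%, 0.118% and 0.109% in Tg2 and 0.109%, 0.108% and 0.108% in Tg3. On this scale WT and Tg1 were still above all NC libraries, whereas Tg2 replicate 3 and Tg3 replicate 2 fell just under NC replicate 2. Tg3 replicate 3 lay under it on both scales. The TMM factors ranged from 0.951 to 1.04 and were lowest in Tg2 replicate 1. The permutation test of the 12 PKD2 libraries against NC gave p = 0.0308 without TMM (exact, two-sided).

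BiP works with HYOU1, the ER HSP110 chaperone that also serves as its nucleotide exchange factor, with the J-domain proteins DNAJB9, DNAJB11, DNAJC3 and DNAJC10, and with the cofactor MANF. Of 13 genes of the ER HSP70 family and its co-chaperones tested besides HSPA5, 11 were higher and 2 lower in Tg1 than in NC, with a median log2 fold change of 0.05 against 0.0034 over all genes. None of them passed the adjusted p by edgeR in Tg1, where 6 had an unadjusted p under 0.05. In Tg2, 10 were higher and 3 lower, and 3 passed the adjusted p without reaching the fold threshold, 23.1% of the list against 14.2% of all genes. DNAJC3 (p58IPK, log2 fold change 0.23, adjusted p = 0.0341 by edgeR) and DNAJB9 (ERdj4, 0.20, adjusted p = 0.0489) were higher, while DNAJC10 (ERdj5, a disulfide reductase, -0.23, adjusted p = 0.0129) was lower.

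HYOU1 was at 319, 325 and 319 CPM in NC and at 341, 341 and 360.0 CPM in Tg1, so that its libraries did not overlap either. Its log2 fold change was 0.11 in Tg1 (adjusted p = 0.168 by edgeR), less than that of HSPA5, and 0.08 in Tg2, 0.03 in WT and 0.02 in Tg3. DNAJB9 was at 24.6, 25.6 and 22.9 CPM in NC, 26.5, 27.4 and 28.1 CPM in Tg1 and 28.3, 29.2 and 26.6 CPM in Tg2. MANF had log2 fold changes of 0.19 in Tg1 (adjusted p = 0.19 by edgeR) and 0.14 in Tg2 (adjusted p = 0.196), and CRELD2, another secreted ER stress gene, had 0.18 and 0.10. DNAJB11 (ERdj3) had 0.13 in Tg1 and 0.02 in Tg2.

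Among 15 other ER chaperones and lectins tested, 10 were higher and 5 lower in Tg1, and 8 and 7 in Tg2. HSP90B1 (GRP94), the ER member of the HSP90 family, was at 417, 446 and 434 CPM in NC, at 483, 475 and 459.8 CPM in Tg1 and at 394, 418 and 410 CPM in Tg3. Its Tg1 libraries lay above the NC libraries and 2 of its Tg3 libraries lay below them, with log2 fold changes of 0.13 (adjusted p = 0.118 by edgeR) and -0.09. In Tg2 and WT its log2 fold changes were 0.03 and -0.01. Between Tg1 and Tg3, HSP90B1 passed the adjusted p with a difference of 0.21 (adjusted p = 0.0385 by edgeR), under the fold threshold. Calreticulin (CALR), a calcium-binding lectin chaperone, had 0.07 in Tg1 and -0.03 in Tg2, neither past the test. The torsins, AAA+ ATPases of the ER and nuclear envelope, were the members that passed in Tg2, with TOR1B at 0.33 (adjusted p = 0.0213 by edgeR, a DEG) and TOR1A at 0.19 (adjusted p = 0.0195). They made up 13.3% of the list against 14.2% of all genes past the adjusted p, and 6.67% against 8.43% were DEGs. Of the 17 ER oxidoreductases, which form and rearrange disulfide bonds, 12 were higher in Tg1 and 14 in Tg2, and 0 passed the adjusted p by edgeR in either, where 4 and 5 had an unadjusted p under 0.05. PDIA4 had log2 fold changes of 0.08 in both, PDIA6 had 0.12 and 0.01, and P4HB had 0.05 and 0.07.

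**Figure D3:**
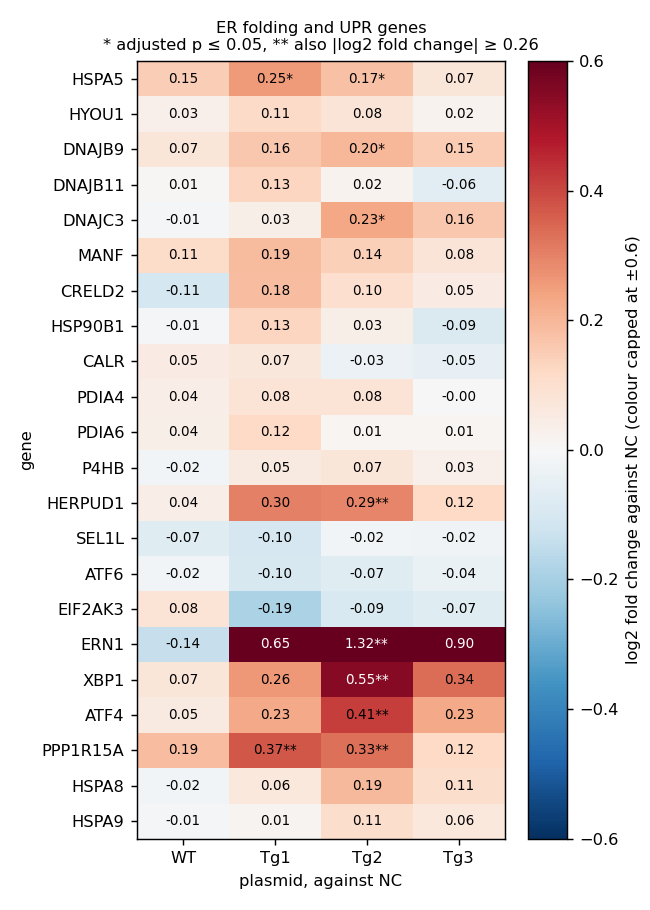
Log2 fold change against NC (edgeR) of HSPA5 and other genes of ER folding and the UPR in the 4 genotypes, with the cytosolic HSPA8 and mitochondrial HSPA9 at the foot; colours are capped at ±0.6, 1 star marks an adjusted p of 0.05 or less and 2 stars also a change of at least 0.26 in either direction. HSPA5 carries 1 star in Tg1 and Tg2, and PPP1R15A carries 2 stars in both.

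Of 13 UPR sensors and transcription factors tested, 8 were higher and 5 lower in Tg1, where 0 passed the adjusted p by edgeR and 3 had an unadjusted p under 0.05. In Tg2, 5 were higher and 8 lower, and ATF4, XBP1 and ERN1 were DEGs, all upward, which is 23.1% of the list against 8.43% of all genes. XBP1, whose mRNA is spliced by IRE1 into the active transcription factor, was at 107.7, 126.2 and 97.97 CPM in NC and at 189.4, 166.5 and 128.8 CPM in Tg2 (log2 fold change 0.55, standard error 0.15, adjusted p = 0.0353 by edgeR). The lowest Tg2 library was only slightly above the highest NC library and lay below WT replicate 2, at 141.2 CPM. Spliced and unspliced XBP1 are not separated by gene counts. ATF4, the transcription factor downstream of PERK, was at 319.5, 370.5 and 305.1 CPM in NC and at 479.9, 457.5 and 388.4 CPM in Tg2 (log2 fold change 0.41, adjusted p = 0.0318 by edgeR). WT replicate 2, at 404.4 CPM, lay above the lowest Tg2 library here too. Of this list, only ERN1 was a DEG in Tg2 against WT, 7.69% against 5.92% of all genes. ERN1 had 1.55 CPM on average in NC and 3.89 CPM in Tg2 (log2 fold change 1.32, standard error 0.36, adjusted p = 0.0326 by edgeR). It lay near the filter of 2 CPM, and WT replicate 2, at 2.43 CPM, was close to the lowest Tg2 library, at 2.66 CPM. In Tg1, where HSPA5 was highest, the log2 fold changes of XBP1, ATF4 and ERN1 were 0.26, 0.23 and 0.65, with adjusted p-values of 0.357, 0.272 and 0.351 by edgeR. EIF2AK3 (PERK) and ATF6 were lower than NC in Tg1 and Tg2, with log2 fold changes of -0.19 and -0.09 for EIF2AK3 and -0.10 and -0.07 for ATF6, and none of these passed. NFYC, a subunit of the factor that binds ER stress response elements together with ATF6, had 0.15 in Tg2 (adjusted p = 0.0297 by edgeR).

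PPP1R15A (GADD34) recruits the phosphatase that reverses the phosphorylation of eIF2α by PERK. It was at 131, 147 and 142 CPM in NC, 155, 163 and 160.0 CPM in WT, 153, 195 and 195 CPM in Tg1, 176, 185 and 168 CPM in Tg2 and 155, 155 and 147 CPM in Tg3. As for HSPA5, all WT, Tg1 and Tg2 libraries lay above the NC libraries and Tg3 replicate 3 did not. PPP1R15A was a DEG in Tg1 (log2 fold change 0.37, standard error 0.08, adjusted p = 0.0291 by edgeR) and in Tg2 (0.33, adjusted p = 0.0219). It was the only DEG in Tg1 among the 130 ER genes tested besides HSPA5. Its Tg1 call was lost without NC replicate 1 or 3 or Tg1 replicate 2 or 3, with adjusted p-values up to 0.131 by edgeR, and also when only the Tg1 and NC libraries were fitted.

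Among the 19 targets of the PERK, ATF4 and CHOP branch tested, 15 were higher and 4 lower in Tg1 and in Tg2. Their median log2 fold changes were 0.11 and 0.13, against 0.0034 and -0.0066 over all genes. In Tg2, 26.3% of the list were DEGs against 8.43% of all genes, and besides PPP1R15A they went in both directions. NUPR1, a stress-induced chromatin protein, had a log2 fold change of 0.93 (adjusted p = 0.0392 by edgeR), and the tryptophanyl-tRNA synthetase WARS1, which interferon also induces, had 0.94 (adjusted p = 0.0471). WT replicate 2 was at 285 CPM for NUPR1 and 482 CPM for WARS1, above the lowest Tg2 libraries at 240 and 433 CPM. The cystine transporter SLC7A11 (-0.50, adjusted p = 0.0134 by edgeR) and the serine synthesis enzyme PSAT1 (-0.41, adjusted p = 0.0183) were lower, as was PHGDH, the enzyme before PSAT1 in that pathway (-0.25, adjusted p = 0.0377, not a DEG). The DEGs of this list in Tg2 against WT were SLC7A11, PSAT1 and PHGDH downward and CEBPB upward, 21.1% against 5.92% of all genes. PPP1R15A, NUPR1 and WARS1 were not DEGs there. In Tg1 the log2 fold changes of these genes were 0.52 for NUPR1, 0.51 for WARS1, -0.33 for SLC7A11, -0.12 for PSAT1 and -0.04 for PHGDH, and none passed the adjusted p.

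In the 18 genes of ER-associated degradation tested, which remove misfolded proteins through the ubiquitin system, 10 were higher in Tg1 and 12 in Tg2. HERPUD1, an ER membrane protein of this pathway, was at 142, 155 and 141 CPM in NC, 166, 185 and 189 CPM in Tg1 and 197, 176 and 163 CPM in Tg2, with no overlap in either comparison. Its log2 fold change of 0.30 in Tg1 exceeded that of HSPA5 but had an adjusted p of 0.0679 by edgeR, whereas 0.29 in Tg2 was a DEG (adjusted p = 0.0358). WT replicate 2 of HERPUD1, at 170 CPM, lay above the lowest Tg2 library, and HERPUD1 was not a DEG in Tg2 against WT. DERL3 fell in Tg2 (-0.54, adjusted p = 0.0461 by edgeR) from 3.78 CPM in NC, a call that all 6 fits lacking 1 library lost. HERPUD1 and DERL3 were the only DEGs of the list in Tg2 against NC, 11.1% against 8.43% of all genes. SEL1L, a subunit of the ubiquitin ligase complex of this pathway, had log2 fold changes of -0.10 in Tg1 and -0.02 in Tg2, neither past the test.

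Of the 19 genes of ER import and N-glycosylation tested, 15 were higher and 4 lower in Tg1, and 17 were higher and 2 lower in Tg2. SEC61A1, the pore subunit of the translocon, was a DEG in Tg2 (log2 fold change 0.33, adjusted p = 0.0339 by edgeR). It was also a DEG in Tg2 against WT, although WT replicate 2 (262 CPM) lay above the lowest Tg2 library (257 CPM). DDOST of the oligosaccharyltransferase (0.13, adjusted p = 0.0297 by edgeR) and the signal recognition particle receptor SRPRA (0.14, adjusted p = 0.0498) passed under the fold threshold in Tg2 against NC. There, 5.26% of the list were DEGs and 15.8% passed the adjusted p alone, against 8.43% and 14.2% of all genes. Of the 16 genes of ER calcium handling tested, 8 were higher and 8 lower in Tg1, with a median of -0.00074, and 10 and 6 in Tg2. The ER calcium sensor STIM1 was a DEG in Tg2 (0.47, adjusted p = 0.0168 by edgeR), and the calcium release channel RYR3 was lower there (-0.36, adjusted p = 0.0475). Both were DEGs, 12.5% of the list against 8.43% of all genes. ITPR2, an inositol trisphosphate receptor, was at -0.257 in Tg1 (adjusted p = 0.0222 by edgeR), just short of the fold threshold. It was a DEG, lower in Tg1, against WT and also against Tg3 (-0.27, adjusted p = 0.0253 by edgeR against Tg3).

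Over the 8 ER lists, 140 genes besides HSPA5 were listed and 130 were tested. In Tg1, 89 were higher and 41 lower (68.5% higher, against 51% of all genes), and 0.769% were DEGs against 1.19% of all genes. In Tg2, 91 were higher and 39 lower (70% higher, against 48.3% of all genes), and 10.8% were DEGs, 10 upward and 4 downward, against 8.43% of all genes. The median log2 fold changes were 0.05 in Tg1 and 0.06 in Tg2, and HSPA5, at 0.25 and 0.17, lay above them. HSPA5 came from the study's list of Tg1 genes and these genes did not, so its place above their median is not independent of that choice. In WT, 65 were higher and 65 lower, and in Tg3 83 were higher and 47 lower. In both, 0 were DEGs by edgeR, 4 in WT and 20 in Tg3 had an unadjusted p under 0.05, and DESeq2 called 1 in WT and 0 in Tg3. Between Tg1 and WT, ITPR2 was the only DEG by edgeR, 0.769% against 0.0692% of all genes. Between Tg2 and WT, 6.92% were DEGs, 6 upward and 3 downward, against 5.92% of all genes. For the mean of the 4 genotypes against NC, 85 were higher, 45 lower and 0 DEGs by edgeR, with 31 at an unadjusted p under 0.05 and 2 DEGs by DESeq2. The number of ER DEGs in Tg2 against NC ranged from 0 to 20 over the fits lacking 1 library, with 0 without NC replicate 1 and 20 without Tg2 replicate 3. In these fits, the calls of ATF4, XBP1, ERN1, HERPUD1, NUPR1, WARS1, SEC61A1, TOR1B, STIM1, SLC7A11, PSAT1, RYR3 and PPP1R15A in Tg2 were lost without NC replicate 1, NC replicate 3, Tg2 replicate 1 or Tg2 replicate 2.

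**Figure D4:**
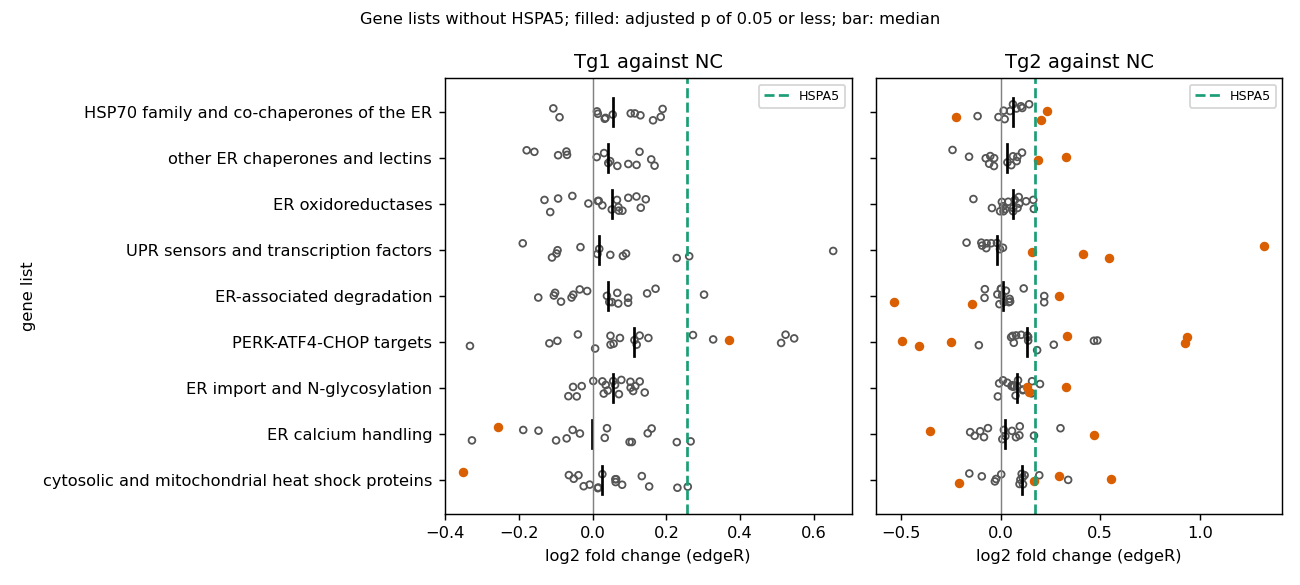
Log2 fold change (edgeR) of each tested gene of the 8 ER lists and of the cytosolic and mitochondrial heat shock proteins, in Tg1 (left) and Tg2 (right) against NC, without HSPA5; filled points have an adjusted p of 0.05 or less, black bars are list medians and the dashed line is HSPA5. The HSPA5 line lies to the right of every median, though HSPA5 was chosen with results of these libraries known. The filled points of Tg2 lie on both sides of 0.

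The renal epithelial markers moved beside these genes in Tg2. The brush border and endocytosis genes LRP2 (log2 fold change -0.35, adjusted p = 0.0233 by edgeR), CUBN (-0.33, adjusted p = 0.0266), SLC5A2, ANPEP and VIL1 were DEGs downward and CDH1 (E-cadherin, 0.30, adjusted p = 0.0286) was a DEG upward. These 6 DEGs were 35.3% of the 17 markers tested against 8.43% of all genes, and 52.9% against 14.2% passed the adjusted p alone. COL1A2 had -0.14 in Tg2 against NC (adjusted p = 0.067 by edgeR) and -0.19 against WT (adjusted p = 0.0359). In Tg1, 0 of the 17 markers were DEGs by edgeR, 7 had an unadjusted p under 0.05, and KRT8 passed the adjusted p at 0.16 (adjusted p = 0.0222). The part of these shifts in the HSPA5 result was not tested.

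HSP70 proteins of other compartments were set beside HSPA5. The cytosolic HSPA8 (HSC70) had log2 fold changes against NC of 0.06 in Tg1 and 0.19 in Tg2 (adjusted p = 0.672 and 0.0948 by edgeR), and the mitochondrial HSPA9 (mortalin) had 0.01 and 0.11 (adjusted p = 0.85 and 0.0607). Of 17 cytosolic and mitochondrial heat shock genes tested, 11 were higher and 6 lower in Tg1, with a median of 0.03, and 12 and 5 in Tg2, with a median of 0.11. In Tg2 the HSP70 partners DNAJB1 (HSP40, 0.29, adjusted p = 0.0219 by edgeR) and BAG3 (0.55, adjusted p = 0.0292) were DEGs upward. HSF1, the transcription factor of the cytosolic heat shock response, had 0.17 there (adjusted p = 0.0219 by edgeR, not a DEG). HSPA4L, a cytosolic HSP110, was a DEG downward in Tg1 (-0.35, adjusted p = 0.00682 by edgeR) and had -0.21 in Tg2 (adjusted p = 0.0219). Of this list, 11.8% were DEGs in Tg2 against 8.43% of all genes, and 23.5% against 14.2% passed the adjusted p alone. The share of DEGs in Tg1 was 5.88% against 1.19%. The highly similar HSPA1A and HSPA1B were not analysed here, and Salmon can divide reads among HSP70 genes with similar transcripts.

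The genes whose level followed HSPA5 most closely were ranked by Pearson correlation of log2 CPM over the 15 libraries, which includes the differences between plasmids. The 10 highest were PPP1R15A (r = 0.90), the tropomyosin TPM1 (0.90), CITED2 (0.87), WDR83OS (0.85), NEDD8 (0.85), PRDX2 (0.84), NUCB1 (0.82), AKR1A1 (0.82), PPIB (0.81) and NARF (0.81). They were the highest of 10185 tested genes with a symbol, and the libraries share plasmid and scaling. PPP1R15A, NUCB1 and the ER cyclophilin PPIB are on the ER lists. TPM1 was at 688, 732 and 708 CPM in NC and at 775, 781 and 774 CPM in Tg1, so that its Tg1 libraries also lay above its NC libraries (log2 fold change 0.13, adjusted p = 0.0621 by edgeR). The peroxiredoxin PRDX2, a thiol peroxidase, passed the adjusted p in Tg1 (0.23, adjusted p = 0.00897 by edgeR) and in Tg2 (0.20, adjusted p = 0.0132) under the fold threshold, as HSPA5 did.

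Among the other genes of ER folding, r with HSPA5 was 0.81 for PDIA4, 0.77 for HYOU1, 0.72 for MANF, 0.71 for HERPUD1, 0.68 for DNAJB9 and 0.67 for HSP90B1. It was 0.46 for XBP1, -0.45 for SEL1L and -0.68 for ATF6. The median over the 130 ER genes was 0.32, and 89 were above 0, against a median of -0.0071 over all genes. After the mean of each plasmid was subtracted, so that only differences between replicates of the same plasmid were left, the median over the ER genes was 0.29. The 10 closest genes were then MTRFR (r = 0.94), CWC22 (0.91), SAMD4A (0.90), BPHL (0.90), COX17 (0.88), PGM2 (0.86), EDEM2 (0.86), NCL (0.86), UCHL3 (0.85) and TOMM7 (0.85). None of them was among the 10 closest over all libraries, and EDEM2, a protein of ER-associated degradation, is the only one on an ER list. PPP1R15A had r = 0.74 on this scale, HYOU1 had 0.51 and P4HB had -0.64.

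**Figure D5:**
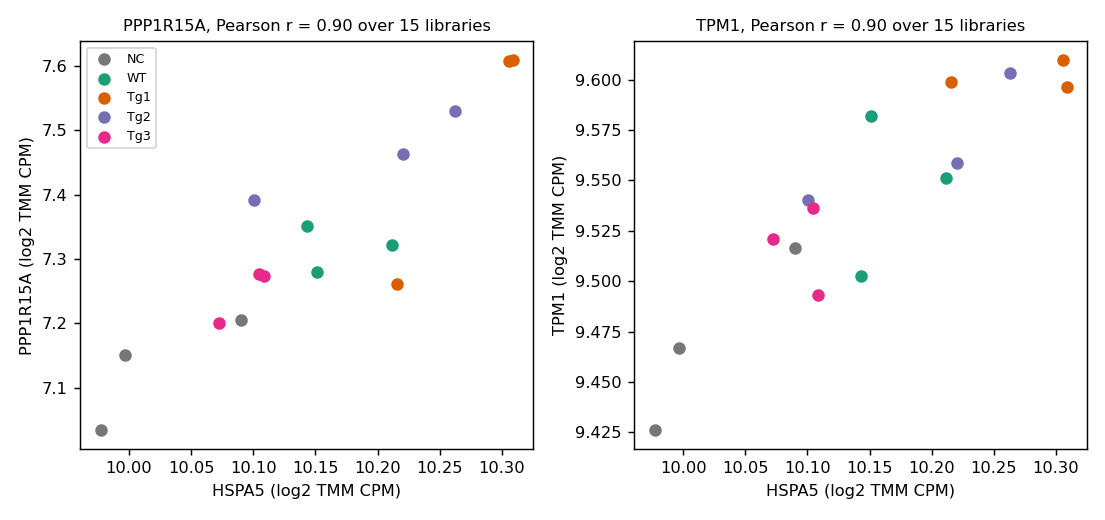
Log2 TMM-normalized CPM of PPP1R15A (left) and TPM1 (right) against that of HSPA5 in the 15 libraries, coloured by plasmid. Both have r = 0.90, with NC replicates 1 and 3 at the lower left and Tg1 replicates 2 and 3 at the upper right.

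The genes next to HSPA5 in the RefSeq annotation of the pig assembly Sscrofa11.1 were RABEPK and PPP6C on one side and GAPVD1 on the other. In Tg1 their log2 fold changes were 0.13 (adjusted p = 0.349 by edgeR), 0.02 and -0.03, and in Tg2 they were -0.10, 0.01 and 0.10 (adjusted p = 0.0999 for GAPVD1), so that none of them passed in either comparison.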

How the data were processed

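RNA-seq of 15 LLC-PK1 libraries (5 plasmids, 3 wells each) was analysed. The authors quantified transcripts with Salmon 0.14.1 against the pig cDNA set of Ensembl release 98 and deposited whole-number, unnormalized counts per gene. How transcripts were summed to genes and the genome build are not given in the sources used here. A mean CPM of at least 2 was required, and the 11553 genes that met it were fitted with edgeR 4.0.16 in R 4.3.3 (TMM, glmQLFit, glmQLFTest, 15 libraries in 1 model of group means, Benjamini-Hochberg adjustment). The study used DESeq2 1.26.0, and DESeq2 1.42.0 was an alternative here. HSPA5 was also compared by exact permutation tests (two-sided), whose smallest p is 0.1 for 3 against 3. Levels are TMM-normalized CPM with a prior count of 2 on the log2 scale, and gene lengths were not used. Symbols were found for 13426 of 16660 identifiers, 53 of them only in the symbol columns of the study's supplementary tables, whose fold changes and p-values were not used. The fits were tested on simulated counts with changes larger than those of HSPA5 and no effect of replicate number. That test therefore does not cover changes as small as those of HSPA5. The genes named were HSPA5, set genes of ER folding and the UPR, list genes past the test, and the 10 genes most correlated with HSPA5 on each scale. HSPA5 and the lists were chosen with earlier results of these data known. The PKD2 transcripts themselves, pig and human, were not analysed here.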

Additional observations from a re-analysis of the deposited data

How the results depend on the processing

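HSPA5 stayed above NC in WT, Tg1, Tg2 and Tg3 under every alternative run. Its adjusted p in Tg1 passed under all 7 alternatives that kept every library or only the compared ones. In Tg2 it passed under 6 of 7, the exception being a fit of only the groups compared. The alternative without a fold threshold was the main fit itself, so its adjusted p was the same by construction and is no further evidence. Without a fold threshold, HSPA5 was called in Tg1 (0.25) and Tg2 (0.17), and the numbers of DEGs were 264 for Tg1 and 1643 for Tg2 against NC, 1099 for Tg2 against WT and 118 for Tg1 against Tg3, with 2 ER genes in Tg1 and 23 in Tg2. The difference between Tg2 and WT in HSPA5 turned to -0.045 without TMM, and without Tg2 replicate 2 to -0.0071 by edgeR and -0.0080 as a difference of mean log2 levels. The causes of the changes were not tested.

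DESeq2 in place of edgeR called 11 DEGs in WT, 242 in Tg1, 45 in Tg3 and 106 for the mean of the 4 genotypes against NC. It called 85 in Tg1, 1184 in Tg2 and 108 in Tg3 against WT, 159 for Tg1 against Tg2 and 138 for Tg1 against Tg3, with 1 ER gene in WT, 3 in Tg1 and 2 for the mean. With no filter on low counts, 2 DEGs were called for Tg1 against WT and 7 for Tg1 against Tg2, and with filterByExpr 7 for the latter. When only the groups compared were fitted, 0 DEGs were called for Tg1 against WT, Tg2 against WT and Tg1 against Tg2 and 32 for Tg1 against Tg3, with 2 ER genes in Tg1.

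The main fit did not pair libraries by replicate number. Once group means were subtracted, same-numbered libraries correlated at 0.14 on average, with 20 of 30 pairs above 0.1. Others were at -0.071, a value largely set by centring groups of 3 libraries. Of 15 libraries, 9 correlated best with their own number. For replicate 2 every pair of plasmids was positive (0.10 to 0.54), whereas replicates 1 and 3 had pairs of both signs. These values do not justify leaving the number out, so fits with it follow. Whether equal numbers mark wells handled together is not given in the sources and was not tested. With the replicate number as a block, the log2 fold change of HSPA5 was 0.255 in Tg1, still just under the threshold (adjusted p = 0.00937 by edgeR), and 0.17 in Tg2 (adjusted p = 0.0146), and the mean of the 4 genotypes against NC passed the adjusted p (0.0324 by edgeR). The block gave 246 DEGs in Tg1, 1624 in Tg2, 11 in Tg3 and 148 for the mean against NC. It gave 66 in Tg1, 1578 in Tg2 and 111 in Tg3 against WT, 162 for Tg1 against Tg2 and 108 for Tg1 against Tg3, with 4 ER genes in Tg1 and 1 for the mean.

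When single libraries were left out, HSPA5 ranged from 0.23 to 0.29 in Tg1 and from 0.14 to 0.22 in Tg2 against NC, from -0.0071 to 0.0727 by edgeR, or -0.0080 to 0.0729 as mean levels, in Tg2 against WT, and from 0.14 to 0.20 for the 12 PKD2 libraries against NC. The adjusted p for any difference ranged from 0.00963 to 0.095 by edgeR. DEGs against NC ranged from 0 to 25 in WT, 16 to 83 in Tg1, 0 to 1880 in Tg2 and 0 to 55 for the mean. They ranged from 0 to 855 in Tg1, 0 to 2421 in Tg2 and 0 to 1321 in Tg3 against WT, from 0 to 118 for Tg1 against Tg2 and from 3 to 113 for Tg1 against Tg3. ER genes called ranged from 0 to 1 in WT, 0 to 2 in Tg1, 0 to 20 in Tg2 and 0 to 2 for the mean. The counting error of HSPA5 is small, so the 3 libraries per plasmid, not depth, limit its precision.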
